A study of Komagataella pastoris with 15 samples.

Results

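A set of 105 transcripts was higher both in cells starved of carbon once glycerol feeding had ended and in methanol-adapted cells than in logarithmic growth and on the arrays labelled as the peak of product expression. They were taken from the 3915 locus tags of the authors' table of log2 values, of which they are 2.68%. A tag entered when the lower of its glycerol end and methanol means exceeded the higher of its logarithmic growth and rhHSA peak means by at least 1 log2 unit, a difference called the margin here. The glycerol end and methanol means also had to lie within 0.6 log2 units of each other, and the mean at the end of fermentation no more than 1 log2 unit outside the range of the other phases. Of the 3915 tags, 146 had the margin, 118 of these also met the second condition and 106 all of them. The rule sets aside 8 tags by identifier, 1 of which (PAS_chr3_0867) met the conditions, which left 105.

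The cells were Pichia pastoris, a methylotrophic yeast labelled Komagataella pastoris, in a fermentation making recombinant human serum albumin (rhHSA). RNA taken from 3 fermentors (40 L each) was labelled with a single dye, Cy3, and hybridised to 15 Agilent arrays, 1 per fermentor and phase. They covered logarithmic growth, cells 40 min into carbon starvation as glycerol feeding ended and the methanol feed began ("glycerol end"), cells fully adapted to methanol as sole carbon source ("methanol"), the highest rate of rhHSA expression ("rhHSA peak") and the end of fermentation, when rhHSA had fallen to 220 mg/L. The strain, its expression cassette and the carbon source of the last 2 phases are not given in the sources used here.

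Methylotrophic yeasts grow on methanol through oxidation in peroxisomes and assimilation of the formaldehyde formed. In this species glycerol and glucose are known to hold many genes of methanol use and of other alternative carbon sources at a low level. Loss of the repressing carbon source lifts part of that repression, and methanol acts as a further inducer for some of these genes. The files name each probe by locus tag alone, and 0 of the array's tags matched the reference table, so no role is given to any member, and tags are named as ends of a range, as set out in the processing notes, or where the text says that they were singled out after their values were seen.

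The arrays came from 2 scans, of which scan 1 (7 arrays) took fermentor 1 up to the rhHSA peak plus every end-of-fermentation array, and scan 2 the other 8. Each array had at least 98.7% of its probes well above background, and 104 of the 105 members were so on all 15 arrays. The number of arrays limits the precision. In logarithmic growth, arrays 2 and 3 were no further apart than their spots were noisy (1.94% of tags beyond it at an unadjusted p under 0.05, against 6.70% to 55.6% for the other pairs of one phase on one scan). They were counted as 1 sample in means with SD, so n = 2 there, while the rule and the fits used all arrays. The arrays labelled rhHSA peak went against what their label would lead one to look for, since their mean over all tags correlated at r = 0.973 with logarithmic growth, 0.942 with glycerol end, 0.910 with methanol and 0.889 with the end of fermentation (tags are not independent replicates). Whether they hold the phase they name is in doubt, and every value given for the rhHSA peak is that of the arrays so labelled. Without those arrays in the rule, 246 tags qualified, including all 105.

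All 105 members had each of their 6 glycerol end and methanol arrays above each of their 6 logarithmic growth and rhHSA peak arrays in the authors' values. Over the whole table this held for 23.5% of tags, and since the rule used these same contrasts nothing is read from the count. In the scanner values, which still carry the difference between scans, it held for 97 members (10.7% of all 5039 tags), and for all 105 when arrays were compared within each scan (19.4% of all tags). Margins ran from 1.00 to 4.72 log2 units with a median of 1.40. There were 40 members with a margin of at least 1.5 and 13 with a margin of at least 2. As folds of the mean of the raised phases over the mean of the low phases, members ranged from 2.07-fold to 30.6-fold with a median of 3.20-fold. The median difference of glycerol end from logarithmic growth was 1.64 log2 units and that of methanol from logarithmic growth was 1.81. Both comparisons share the logarithmic growth arrays. From the rhHSA peak, the median difference was 1.53 for glycerol end and 1.64 for methanol. These values chose the members and are given without a test.

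**Figure D1:**
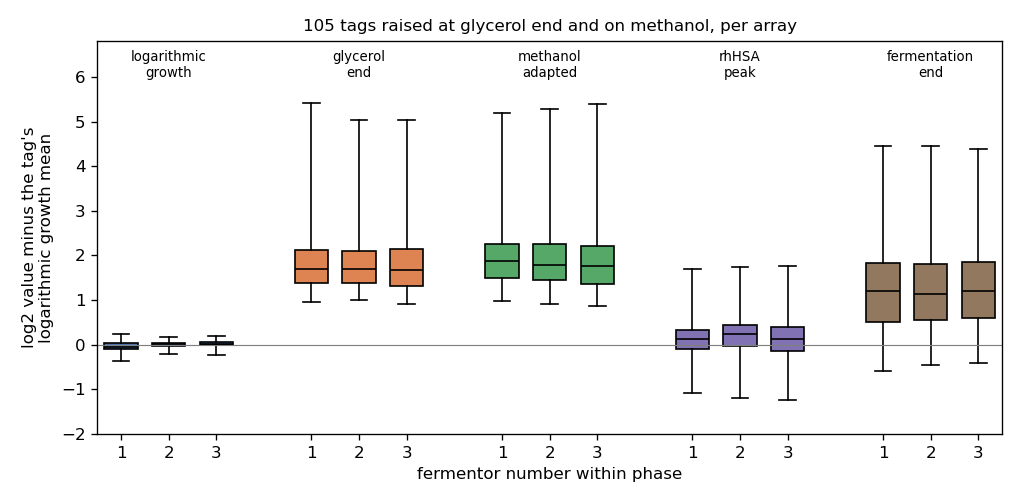
Each box shows the 105 members on 1 array as the authors' log2 value minus the tag's own mean in logarithmic growth (vertical axis, log2 units), with arrays grouped by phase and numbered by fermentor. Boxes span the quartiles, the line is the median and whiskers reach the lowest and highest member. The glycerol end and methanol boxes lie above those of logarithmic growth and the rhHSA peak in all 3 fermentors, as the rule requires. The boxes of the end of fermentation, which the rule bounds more loosely, are the tallest.

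The member with the largest margin was PAS_chr3_0023. Its authors' log2 values were 11.10, 11.31 and 11.30 in logarithmic growth, 16.64, 16.27 and 16.26 at glycerol end, 16.40, 16.29 and 16.23 on methanol, 11.37, 11.54 and 11.87 at the rhHSA peak and 15.68, 15.69 and 15.62 at the end of fermentation. The raised and low phases did not overlap in any fermentor. The end of fermentation stood 86.1% of the way from the mean of the low phases to that of the raised phases. The fold of raised over low phases was 30.6. PAS_chr1-4_0597 came next with a margin of 3.87. It gave 9.06, 8.70 and 8.75 in logarithmic growth, 13.39, 13.65 and 13.68 at glycerol end, 14.02, 14.12 and 14.24 on methanol, 9.80, 9.48 and 9.82 at the rhHSA peak and 11.53, 11.54 and 11.73 at the end of fermentation. Here methanol was above glycerol end in each fermentor, and the end of fermentation stood 50.9% of the way from low to raised. No array of a raised phase overlapped one of a low phase.

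The smallest margins were those of PAS_chr1-4_0190 (1.00) and PAS_chr4_0701 (1.01). PAS_chr1-4_0190 had 13.67, 13.74 and 13.74 in logarithmic growth, 14.84, 14.82 and 14.81 at glycerol end, 14.76, 14.79 and 14.60 on methanol, 13.68, 13.81 and 13.55 at the rhHSA peak and 14.80, 14.47 and 14.83 at the end of fermentation. PAS_chr4_0701 averaged 13.14 ± 0.086 at glycerol end and 13.48 ± 0.13 on methanol (SD, n = 3 each), against 11.97 ± 0.062 in logarithmic growth (SD, n = 2) and 12.13 ± 0.078 at the rhHSA peak (SD, n = 3). In these tags, as in all 105 members, no array of a raised phase overlapped one of a low phase. The rule used these same contrasts, so nothing is read from this. The nearest tags outside the threshold, PAS_chr2-2_0408 and PAS_chr3_0703, both had margins of 1.00 (0.999 and 0.998 before rounding), so the boundary divides tags of the same size.

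**Figure D2:**
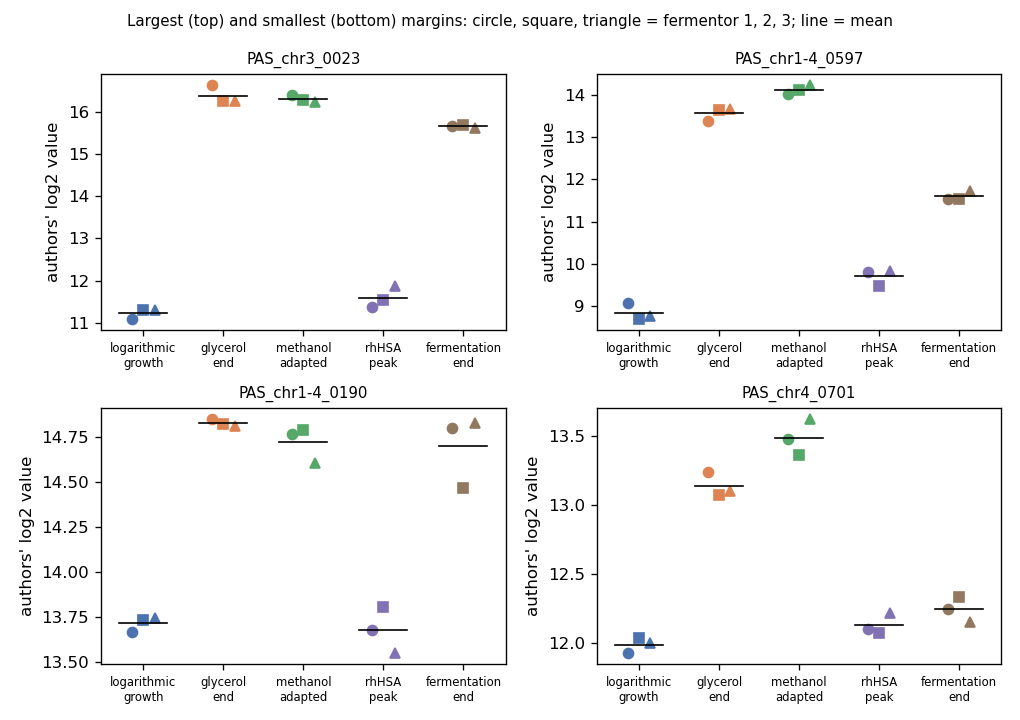
Authors' log2 values (vertical axis, each panel with its own range) of 4 members by phase, with fermentors 1, 2 and 3 as circle, square and triangle and the mean of the 3 arrays as a line. The upper panels hold the largest margins (4.72 and 3.87) and the lower panels the smallest (1.00 and 1.01). In all 4 the raised and low phases do not overlap, as in every member.

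The spread between the arrays of a phase was first taken in the authors' values. The rule required large differences, so nothing is read from their size beside this spread. The median SD over the 3 arrays of a phase was 0.068 log2 units at glycerol end and 0.10 on methanol for the members, and 0.058 and 0.11 for all tags of the table. It was 0.12 at the rhHSA peak and 0.072 at the end of fermentation for the members, and 0.11 and 0.066 for all tags. In logarithmic growth, with arrays 2 and 3 averaged first (n = 2), it was 0.084 for the members and 0.064 for all tags. The scanner values, which keep the difference between scans, gave median SDs of 0.22 to 0.29 for the members in the first 4 phases.

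The pattern was then looked at in a fermentor whose values were left out when the rule was applied. The form and thresholds of the rule were set with earlier results of these data known. The shares below are therefore a description and no independent check. The rule was applied to the means of the other 2 fermentors and the margin read in the one left out. From fermentors 2 and 3 the rule took 94 tags, and in fermentor 1 all 94 had both raised phases above both low ones, with a margin of at least 1 in 85 (90.4%). Among all tags, 31.5% had that order and 4.01% that margin in the same fermentor. Leaving out fermentor 2, all 109 tags taken had the order and 90 (82.6%) the margin, against 31.5% and 3.75% of all tags. Leaving out fermentor 3, all 107 had the order and 80 (74.8%) the margin, against 29.8% and 3.63%. The median margin in the fermentor left out was 1.43, 1.30 and 1.32 log2 units for fermentors 1, 2 and 3. Because the authors' values of all arrays may have been adjusted together, the same was done in the scanner values without the bounds on the end of fermentation. All tags taken (112, 110 and 114) had the order in the fermentor left out, against 28.7%, 30.1% and 27.4% of all tags, and 75.9%, 80.9% and 71.9% had the margin, against 3.37%, 3.73% and 3.12%. Fermentors 2 and 3 share near-identical logarithmic growth arrays, so the last 2 of these 3 readings are less separate from the choice than the first.

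**Figure D3:**
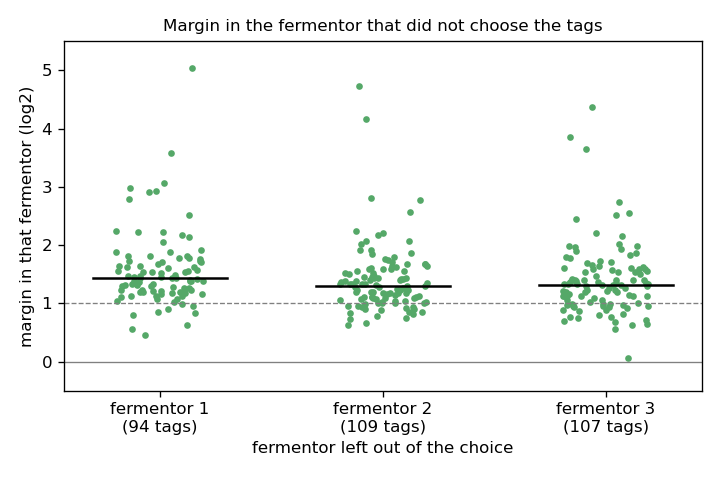
Each point is 1 tag chosen by the rule from 2 fermentors, and its height is the margin (log2 units, authors' values) in the fermentor left out, named on the horizontal axis; points are spread sideways only for legibility and the line is the median. All points lie above 0 (solid line), and 85 of 94, 90 of 109 and 80 of 107 lie at or above 1 (dashed line).

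Methanol and glycerol end differed little by construction, but the direction of the remainder was not set by the rule. In the authors' values 68 members were higher on methanol and 37 lower, with a median difference of 0.12 log2 units and a range from -0.56 to 0.59, where 50.3% of all tags were higher. In 52 members methanol was the higher in all 3 fermentors (39.8% of all tags) and in 26 it was the lower in all 3 (40.2% of all tags). The number higher depended on the scaling of the arrays. It was 56 of 105 in scanner values scaled to the 75th percentile, where the median difference of all tags was -0.12, 60 with median centring and 66 with quantile normalization. Relative to the median of all tags, 67 members were higher in the authors' values and 68 with quantile normalization. The 75th percentile and median centring both gave 67, as they must, since they differ only by a constant on each array. No test is given, since the rule limits the size of this difference.

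The rule used the means of logarithmic growth and the rhHSA peak, both of which had to be low, and so left out tags much raised in either. It did not set which of the 2 was higher or by how much below that limit. Because the same values chose the members, nothing is read from the members' shares beside those of all tags. In the authors' values 73 members had the higher mean at the rhHSA peak (52.8% of all tags did) and 32 the lower. In 49 members the rhHSA peak was the higher in all 3 fermentors (40.5% of all tags) and in 19 the lower in all 3 (36.0%). In the limma fit to the scanner values 9 of the 105 members were higher at the rhHSA peak (8.57%), where 8.82% of the 5024 tags tested were, and 5 were lower (4.76%), where 13.0% were. In either direction 14 were called (13.3%), where 21.8% of all tags were. The fitted difference had a median of 0.03 log2 units over the members, with quartiles at -0.11 and 0.30, and a median of -0.00 over all tags tested. Among those called, 2 members were higher by at least 2-fold and 1 was lower by at least 2-fold. The remaining 91 were not called, which does not show that they did not differ.

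The largest rise among the called members was that of PAS_chr2-2_0057. In scanner values (log2, with the array's 75th percentile set to 0) it had -5.12, -4.95 and -4.66 at the rhHSA peak, against -6.66, -6.51 and -6.58 in logarithmic growth. The arrays did not overlap, and the fitted rise was 1.67 ± 0.13 (SE), or 3.19-fold (limma adjusted p = 8.74e-06). This fit pooled the spread of all 5 phases. Fitted on only the 6 arrays of the low phases, PAS_chr2-2_0057 had a limma adjusted p of 0.0195. It rose by 1.54 on scan 1 and by 1.74 on scan 2. Its values at glycerol end were -3.56, -3.36 and -3.34 and on methanol -3.90, -4.13 and -3.79, so the rhHSA peak lay between its low and raised levels. PAS_chr4_0805 had -5.26, -5.77 and -5.48 at the rhHSA peak, against -6.31, -7.11 and -7.05 in logarithmic growth, a rise of 1.32 ± 0.21 (SE; limma adjusted p = 0.00104). Within scan 1 it rose by 1.06 and within scan 2 by 1.45. Fitted on only the 6 arrays of the low phases, its limma adjusted p was 0.0469.

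Among members called in the fit without a block, the largest falls were those of PAS_chr1-1_0211 and PAS_chr2-1_0190. PAS_chr1-1_0211 had -3.63, -4.19 and -3.61 at the rhHSA peak, against -2.54, -2.85 and -2.85 in logarithmic growth. All 3 peak arrays were the lower ones, and the fitted difference was -1.06 ± 0.24 (SE; limma adjusted p = 0.00851). Within scan 1 it was -1.10 and within scan 2 it was -1.04. PAS_chr2-1_0190 had -5.70, -5.81 and -5.23 at the rhHSA peak, against -4.54, -4.57 and -4.62 in logarithmic growth. The tag fell by 1.00 on the log2 scale (SE 0.14, limma adjusted p = 0.000341), just short of 2-fold, with -1.15 within scan 1 and -0.92 within scan 2. Fitted on only the 6 arrays of the low phases, the limma adjusted p was 0.0461 for PAS_chr1-1_0211 and 0.0408 for PAS_chr2-1_0190. These 4 members were thus called different between the arrays labelled as the low phases, with the limits given for both falls below. PAS_chr1-4_0020, added after its values were seen, had a larger fitted difference of -1.09 ± 0.55 (SE) that was not called without a block (limma adjusted p = 0.197). It was called with the fermentor as a replicate block (limma adjusted p = 0.00908) and with the scan as a block. Its scanner values were -3.67, -5.34 and -5.08 at the rhHSA peak, against -2.51, -4.13 and -4.18 in logarithmic growth, lower in each fermentor but overlapping across scans. With another background correction, normexp on the median signal, neither fall was called (-0.63 at a limma adjusted p of 0.115 and -0.20 at 0.796).

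The counts moved with the treatment of the scans while the 14 called members stayed called in both blocked fits. Neither block changes the fitted difference of a member, so its direction could not change there. With the fermentor as a replicate block 18 members were higher (17.6% of all tags) and 13 lower (21.7%), or 39.3% of all tags either way. With the scan as a block 31 were higher (28.5% of all tags) and 19 lower (29.8%), or 58.3% of all tags either way. On scan 2 alone 19 were higher (17.3%) and 11 lower (20.2%). Scan 1 held 1 array of each of these 2 phases and was not fitted alone. Other scalings moved the split of 9 higher and 5 lower to 14 and 4 with median centring (11.3% and 10.7% of all tags), 16 and 3 with quantile normalization (11.8% and 9.04%) and 47 and 16 in the authors' values (37.2% and 31.9%). Without logarithmic growth array 2 there were 5 higher (5.53% of all tags), and without array 3 there were 5 higher (5.25%) and 3 lower (9.87%).

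**Figure D4:**
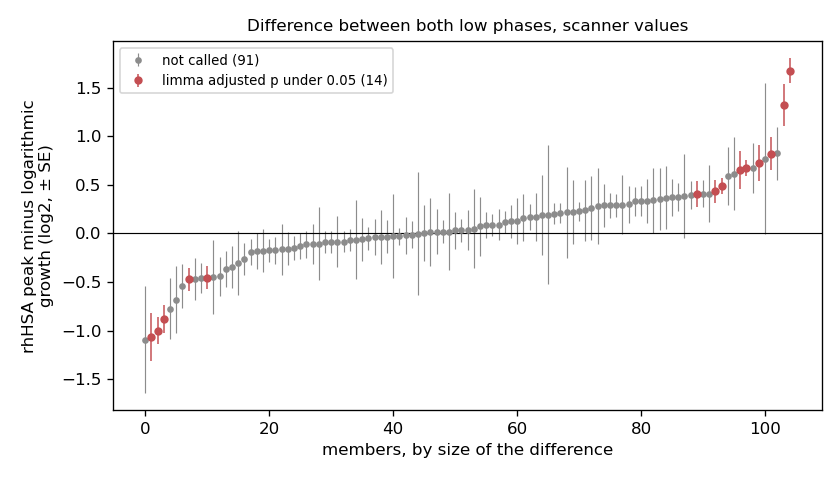
Fitted difference of the rhHSA peak from logarithmic growth (log2 units, scanner values, bars ± SE of the limma fit) for the 105 members, ordered by size. The 14 members called at a limma adjusted p under 0.05 are in red, 9 above 0 and 5 below, and the 91 others in grey.

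At the end of fermentation the members lay further apart. The quartiles of their difference from logarithmic growth were 0.56 and 1.89 log2 units there, against 1.38 and 2.20 at glycerol end and 1.47 and 2.25 on methanol. The rule held glycerol end and methanol at least 1 log2 unit above logarithmic growth and bounded the last phase more loosely. Nothing is therefore read from its wider quartiles. In the authors' values 32 members (30.5%) were at or above the lower of their glycerol end and methanol means, 56 (53.3%) lay between the raised and the low phases, and 17 (16.2%) were at or below the higher of their logarithmic growth and rhHSA peak means. In 24 members the end of fermentation exceeded both raised phases and in 7 it was below both low ones. The place of this phase was expressed with the mean of the low phases at 0 and that of the raised phases at 100%. The median member stood at 61.1%, with quartiles at 38.5% and 98.9% and a range from -45.8% to 175%. The rhHSA peak, listed before this phase, was low in every member by the rule. A high place therefore does not show that a rise lasted. With logarithmic growth alone as the low level the median was 62.2%. It was 63.7%, 59.0% and 65.0% in fermentors 1, 2 and 3. The rule bounds the end of fermentation, so these are descriptions with no test.

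All arrays of this phase lay on scan 1, and the place of the median member depended on how that was handled. Among arrays of scan 1 alone, in scanner values, the median was 47.3%, with 28 members at the raised level, 51 between and 26 at the low level. It was 49.1% over all arrays of both scans and 47.5% with the difference between scans removed. The classes cover every possible place, so nothing is read from their presence in each version. Members at the raised level numbered 32 in the authors' values and 24 in scanner values over all arrays. At the low level there were 17 and 29. The median place was highest in the authors' values.

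The members highest at the end of fermentation, relative to their raised phases, were PAS_chr1-4_0016 and PAS_chr4_0602. PAS_chr1-4_0016 had 12.35, 12.36 and 12.54 at the end of fermentation, against 11.34, 11.58 and 11.48 at glycerol end and 11.39, 11.35 and 10.92 on methanol (authors' log2 values). On scan 1 alone its scanner values were -1.98, -1.94 and -1.92 at the end of fermentation, against -2.87 at glycerol end and -2.99 on methanol. PAS_chr4_0602 had 14.96, 14.95 and 14.56 at the end of fermentation, against 14.13, 13.93 and 13.96 at glycerol end and 13.56, 13.53 and 13.76 on methanol. In both members the last phase was the highest of all, without overlap with the raised phases.

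The members lowest by the same measure were PAS_chr2-1_0827 and PAS_chr1-4_0597. PAS_chr2-1_0827 had 12.99, 12.96 and 12.87 at the end of fermentation, against 15.85, 15.77 and 15.64 at glycerol end and 15.62, 15.67 and 15.77 on methanol. Its values were 13.15, 13.19 and 13.17 in logarithmic growth and 13.40, 13.47 and 13.43 at the rhHSA peak, so the end of fermentation was its lowest phase. On scan 1 its scanner values were -1.84, -1.83 and -1.87 at the end of fermentation, against -1.56 in logarithmic growth and -1.45 at the rhHSA peak, with the same order. PAS_chr1-4_0597, described above, was 2.25 log2 units below the mean of its raised phases at the end of fermentation and still 1.90 above its rhHSA peak.

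**Figure D5:**
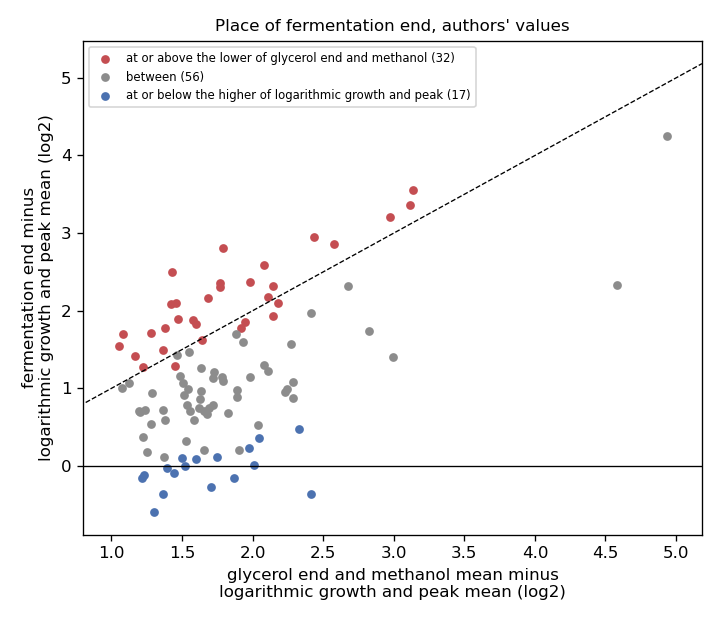
For each of the 105 members, the end of fermentation minus the mean of logarithmic growth and the rhHSA peak (vertical axis, log2) is set against the mean of glycerol end and methanol minus the same low mean (horizontal axis, log2), in the authors' values. Points on the dashed line stood at the mean of the raised phases and points on the horizontal line at that of the low phases. There were 32 members (red) at or above the raised level, 56 (grey) between and 17 (blue) at or below the low level.

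Of the 9 members called higher at the rhHSA peak than in logarithmic growth, 6 were among the 17 at the low level at the end of fermentation, and all 5 called lower were among the 56 in between. Since the low level is taken from the higher of both low phases, a tag with a raised rhHSA peak falls more easily into that class, and nothing is read from these counts.

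A mirrored rule, for tags lower at glycerol end and on methanol by the same margins, took 110 tags. At the end of fermentation 25 of them (22.7%) were at the level of glycerol end and methanol, 64 (58.2%) between and 21 (19.1%) at the level of logarithmic growth and the rhHSA peak, with the median tag at 55.3% of its change. The raised members and the lowered tags are given side by side, and their difference was not tested.

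The members were spread over the array's tag prefixes. Among the 7 prefixes with the most tags in the table, they made up between 1.83% (PAS_chr2-1) and 3.92% (PAS_chr2-2) of tags. Another member within 3 tag numbers was found for 21 of the 105 members (20.0%), and a member within 3 numbers for 388 of the other 3810 tags (10.2%). Within 1 number the shares were 3.81% and 3.46%, and within 5 numbers 28.6% and 16.9%. Tag numbers are used as given, no genome of the tags' build was used here, and no test was made.

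The longest such run, singled out with its tags after their values were seen, held 4 members among the 6 tags from PAS_chr3_0884 to PAS_chr3_0889. In PAS_chr3_0888, the member of the run with the largest margin (2.60), the authors' values were 11.90, 11.82 and 11.87 at glycerol end and 12.52, 12.36 and 12.48 on methanol, against 9.10, 9.33 and 9.36 in logarithmic growth and 9.11, 9.20 and 8.88 at the rhHSA peak. At the end of fermentation it had 10.75, 10.48 and 10.46. The tags between the members did not share the pattern. PAS_chr3_0885 averaged 11.63 at glycerol end and 11.11 on methanol, against 12.40 in logarithmic growth and 11.90 at the rhHSA peak, and so was lower in both raised phases. PAS_chr3_0887 averaged 14.38 at glycerol end and 13.65 on methanol, against 14.24 in logarithmic growth and 14.19 at the rhHSA peak. It was thus lower on methanol only.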

How the data were processed

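Each of the 15 arrays carried Cy3-labelled cRNA from 1 fermentor at 1 phase, per the labels. The authors deposited a table of log2 values for 3915 tags, with no statement of its normalization in the labels or headers. Its column medians ran from 12.6 to 12.7, and against the scanner values of the same array r was 0.983 to 0.988, or 0.996 to 0.9996 once the scan difference was removed, so scale and direction are known and the centring is not. None of its tags, and 1033 of the other 1124, had a scanner value missing after outlier flags. The deposited scanner files hold spot intensity, background-subtracted within each array by Agilent Feature Extraction 10.7.3.1 per the file headers (9.1 per the submitters' processing notes). Microarray values compare 1 tag across arrays and no tag with another.

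Members were found in the authors' table. For the comparison of rhHSA peak with logarithmic growth, log2 processed signal minus the 75th percentile of the array was averaged over the 3 spots of a probe without outlier spots. Tags that in some phase were well above background (2 of 3 spots) on every array were fitted over 15 arrays with limma 3.58.1 in R 4.3.3, without a block, with Benjamini-Hochberg adjustment over 5024 tags at 0.05. The procedure was tested on simulated data. Normexp (offset 50) used the median signal, as the files hold no mean signal. The members and all choices were made with earlier results of these data known.

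The labels give the fermentor number at each phase, which pairs arrays by culture. Deviations from phase means correlated over tags at 0.941 to 0.954, 0.795 to 0.917 and 0.408 to 0.901 for fermentors 1, 2 and 3 over the first 4 phases, where fermentor 1 is also scan 1. With the end of fermentation these were -0.051 to 0.052, 0.18 to 0.26 and -0.31 to -0.20. Whether the fermentors were inoculated separately is not stated, so p-values measure the spread between these arrays.

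Tags were named by rule: the 2 largest and 2 smallest margins, the 2 nearest outside, the 2 highest and 2 lowest at the end of fermentation relative to glycerol end and methanol, and the 2 largest called rises and falls at the rhHSA peak without overlap. Gene lists were not used, since none of the array's tags (0 of 5039) is among the 5305 genes of the reference list, assembly ASM170810v1. Python 3.11.15 with pandas 2.3.3, numpy 2.4.6 and matplotlib 3.10.9, and the R packages data.table (1.17.8) and jsonlite (2.0.0), were used.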

Additional observations from a re-analysis of the deposited data

Results flagged for a closer look

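The arrays measured 1124 tags that are not in the authors' table and so could not be members. In scanner values with the difference between scans removed, 22 of them (1.96%) met the same rule, and 17 of the 22 were well above background on all 15 arrays. In the same values 98 tags of the authors' table (2.50%) met it, 87 of them members. The margins of the 22 ran from 1.01 to 2.10 log2 units with a median of 1.30. The largest was that of PAS_chr1-1_0230, whose scanner values were 0.38 and -0.17 at glycerol end and 0.58 and 0.25 on methanol (fermentors 1 and 3), against -1.99, -2.59 and -2.69 in logarithmic growth and -1.94 and -2.05 at the rhHSA peak (fermentors 1 and 3). Its value from fermentor 2 was missing in 3 phases after outlier flags, and 17 of the 22 had at least 1 missing value. Groups of 3 arrays are too small for a check of single outlying arrays.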

How the results depend on the processing

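The number of members stayed within 1.5 times of 105 in the scanner values under each scaling (95 to 101 tags, 82 to 91 of them members) and when 1 array or 1 fermentor was left out (94 to 111). It was 176 with a margin of at least 0.8 and 40 with at least 1.5, by construction, and 246 without the rhHSA peak arrays. Members higher and lower at the rhHSA peak than in logarithmic growth numbered 9 and 5. With the shares of all tags called higher and lower in brackets, they numbered 14 and 4 (11.3% and 10.7%) with median centring, 16 and 3 (11.8% and 9.04%) with quantile normalization, 9 and 1 (7.82% and 7.23%) with normexp and 47 and 16 (37.2% and 31.9%) in the authors' values. They numbered 31 and 19 (28.5% and 29.8%) with the scan as a block, 18 and 13 (17.6% and 21.7%) with fermentor pairing as a replicate block, and 32 and 19 (28.3% and 29.8%) with that pairing and the scan. With logarithmic growth arrays 2 and 3 averaged they were 5 and 4 (5.39% and 9.97%), and 26 and 16 (24.1% and 27.0%) with a scan block added. They were 3 and 3 (1.41% and 4.74%) with 6 arrays, 19 and 11 (17.3% and 20.2%) on scan 2 alone, and 5 and 3 (4.24% and 8.26%) at the stricter threshold of 0.01. Leaving out 1 array gave 5 to 13 higher and 3 to 6 lower (5 and 4 without logarithmic growth array 2, 5 and 3 without array 3). The median change of all tags was -0.00, and 0.06, 0.10, 0.13 and 0.04 with median centring, quantile normalization, normexp and the authors' values. The 4 named changes kept direction in all 112 refits and their call in 110, the exceptions being both falls with normexp (-0.63 and -0.20). In many of these refits the direction could not change. The blocks over all arrays, the fit to every tag, the 6 arrays and the stricter threshold leave the fitted difference the same. So does leaving out an array of another phase. The median place of the end of fermentation, 61.1%, was 49.1% in scanner values, 47.5% without the scan difference, 47.3% on scan 1 alone and 53.3% with quantile normalization, and 59.6% to 64.0% without 1 array. The fits with fermentor and scan together, with averaged arrays and a scan block, on scan 2 alone, the rule without the rhHSA peak or with averaged arrays, and the low level from logarithmic growth alone were added after seeing the data. Causes were not tested. Nearly all probes were well above background. In the authors' values the mean of the low phases was below the column medians (12.6 to 12.7) in all 4 named tags. For the falls it was 11.0 (PAS_chr1-1_0211) and 9.01 (PAS_chr2-1_0190), and for the rises 8.30 (PAS_chr2-2_0057) and 8.03 (PAS_chr4_0805). Both named falls lost their call with normexp, and both rises kept theirs. That setting changed the signal, the background correction and the offset together, and which of these mattered was not tested.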
